A study of Mus musculus with 12 samples.

Results

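Expression of 10 target genes of the transcription factor p53 was measured in epididymal white adipose tissue (eWAT) of obese mice, to ask whether weekly methotrexate (MTX) left a DNA damage response in the fat. The genes were taken from textbook knowledge of the pathway, with earlier results of these data known. The list is Cdkn1a, Ccng1, Mdm2, Bax, Bbc3, Trp53inp1, Phlda3, Eda2r, Gdf15 and Zmat3. They are 10 of the 49315 genes in the count table, and all 10 passed the filter on low counts that left 18702 genes to test. RNA was sequenced from 12 libraries in 4 groups of 3: miR-181a2b2flox/flox (flox) and miR-181a2b2-/- (KO) mice, each given vehicle or methotrexate at 1 mg/kg by weekly intraperitoneal injection. Every mouse ate a diet of 60% fat over 12 weeks, so no group shows fat from lean mice. KO mice lack the locus of the microRNAs Mir181a-2 and Mir181b-2 in every tissue, and flox mice carry the locus between recombination sites. The ages of the mice are not given in the sources used here. The precursors of both microRNAs were too sparse to check the labels, with 0 counts of Mir181b-2 in all 12 libraries and 0 counts of Mir181a-2 in 11 of them (2 counts in flox MTX replicate 4).

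p53 is held at a low level in healthy cells by the ubiquitin ligase Mdm2. DNA damage activates the kinases Atm and Atr, which release p53 from Mdm2, and p53 then binds paired half-sites in the DNA of its target genes and raises their transcription. The targets stop the cell cycle, start apoptosis or restrain p53 itself. MTX inhibits dihydrofolate reductase, which starves dividing cells of the thymidine and purines needed to copy DNA. Most adipocytes do not divide, and in obese fat much of the cell division takes place in macrophages and progenitor cells.

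Half-sites of p53 are shown first, because the members of the list are defined by their control through p53. RefSeq promoter windows on GRCm38.p6 (250 bases before to 50 after a start) were matched for 8 of the 10 genes, with 12 windows in all, and Trp53inp1 and Zmat3 were not matched. The p53 half-site consensus, a decamer that reads the same on both strands, occurred in 4 of the 12 windows, 1 each for Cdkn1a, Ccng1, Mdm2 and Bax. It occurred in 8.36% of all 32851 windows and in 9.55% of the 27025 genes with a window. The stretches around the matches are printed on the strand of the gene, with the half-site in capitals.
Cdkn1a, chr17:29090876-29090967, plus strand, half-sites 73 and 51 bases before the start: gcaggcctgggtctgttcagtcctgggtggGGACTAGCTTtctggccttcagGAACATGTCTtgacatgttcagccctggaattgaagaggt
Ccng1, chr11:40755432-40755501, minus strand, half-site 185 bases before the start: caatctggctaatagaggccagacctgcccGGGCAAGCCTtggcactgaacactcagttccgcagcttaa
Mdm2, chr10:117710905-117710974, minus strand, half-site 186 bases before the start: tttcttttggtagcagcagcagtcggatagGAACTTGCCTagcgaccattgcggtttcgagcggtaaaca
Bax, chr7:45467060-45467129, minus strand, half-site 201 bases before the start: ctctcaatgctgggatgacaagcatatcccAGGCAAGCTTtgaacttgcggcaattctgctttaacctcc
In the stretch of Cdkn1a the core ACATGT, which also reads the same on both strands, stood in 2 copies with 4 bases between them. That spacing occurred in 0.0122% of all windows and in no other member's window. A match is a run of letters and was not tested for binding, and a window without a match says nothing about p53.

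The libraries held 19495310 to 23976469 counted reads (median 21824170), so a count of 0 would allow up to 3 counts or 0.125 to 0.154 CPM (counts scaled to a fixed library total), a limit that covers counting error only. Values of single genes below are CPM scaled with TMM factors. The libraries did not differ by group alone. The sum of 18 epididymis markers lay between 1566 and 13580 CPM in the flox vehicle group, was 451 CPM in replicate 1 of the flox MTX group and did not pass 21.5 CPM in any of the remaining 8 libraries. The sum of 14 testis germ cell markers was 725, 637 and 309 CPM in flox vehicle replicates 1, 3 and 4 and between 41.0 and 89.8 CPM in all 9 other libraries. The 14 macrophage markers summed to between 806 and 1392 CPM in flox vehicle libraries, to between 6214 and 12164 CPM in KO vehicle libraries and to between 8470 and 14892 CPM in KO MTX libraries. Among the flox MTX libraries they summed to 3369 CPM in replicate 1, 7046 CPM in replicate 2 and 931 CPM in replicate 4. None of these macrophage markers was at 0 in any group. The 10 lymphocyte markers summed to 305 CPM in flox MTX replicate 2 and 260 CPM in KO MTX replicate 3, and to between 16.8 and 89.8 CPM elsewhere. The 14 adipocyte markers were abundant in every library, from 20826 CPM in KO MTX replicate 3 to 84807 CPM in flox MTX replicate 4. In bulk tissue, fewer cells of a type and less RNA per cell cannot be told apart. The labels do not say that each library is a separate mouse, and p-values then measure the spread between these libraries.

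All 10 genes were detected in every library, at levels that spanned a wide range. Per kilobase of merged exon, the median over 12 libraries was 182 CPM for Phlda3 (range 104 to 350), 52.6 for both Cdkn1a (19.5 to 80.2) and Ccng1 (34.2 to 81.0), and 42.9 for Bax (22.4 to 70.0). The levels per kilobase then fell to 12.4 for Mdm2 (9.99 to 18.5), 7.79 for Trp53inp1 (5.90 to 18.4) and 7.59 for Bbc3 (3.76 to 8.80). Gdf15 (3.79, range 0.203 to 8.61), Zmat3 (2.97, range 2.32 to 3.50) and Eda2r (0.726, range 0.420 to 1.31) were the lowest on that scale. The range of Phlda3 lay above that of every other member. The ranges of neighbours in this order overlapped, except between Phlda3 and Cdkn1a, between Bax and Mdm2 and between Zmat3 and Eda2r. Between libraries Gdf15 varied most, by 42.5-fold, and Zmat3 varied least, by 1.51-fold.

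**Figure D1:**
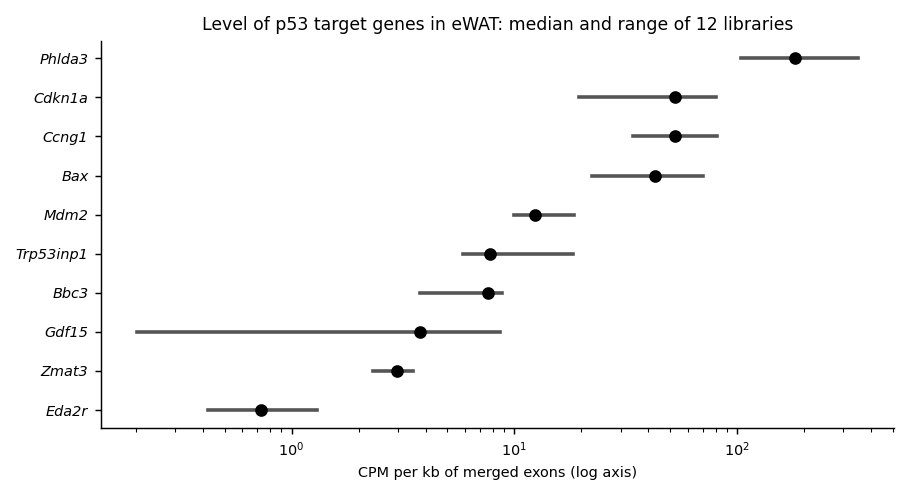
Level of each p53 target gene in CPM per kilobase of merged exon on a log axis, with the median (point) and the range (line) over 12 libraries. Phlda3 stands above all other members, at a median of 182, and Eda2r is lowest, at 0.726.

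MTX in flox mice raised 1 of the 10 genes, Trp53inp1, and lowered none. The call required edgeR's quasi-likelihood test over all genes to give an adjusted p (Benjamini-Hochberg) under 0.1 together with a change of 1.5-fold or more. In this comparison 24.2% of all genes tested were called in either direction, and 8.09% of all genes tested were called higher. The fold changes of 9 of the 10 genes were above 0, with a median log2 fold change of 0.44, beside a median of 0.05 and 53.6% above 0 over all genes tested. Scaled by library size alone, 7 of 10 were above 0 and the median was 0.24. For none of the members did the 3 flox MTX libraries lie apart from the 3 flox vehicle libraries, although 28.3% of all genes tested had groups apart. At an unadjusted p below 0.05 there were 3 members (Cdkn1a, Bbc3 and Trp53inp1), beside 34.2% of all genes. DESeq2 called 2 members, beside 4818 of the 18702 genes.

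In KO mice none of the 10 genes was called under MTX by edgeR, and DESeq2 called 0 as well. The background was 0% of all genes called by edgeR, 281 genes called by DESeq2 and 1491 genes whose unadjusted p was below 0.05. The median log2 fold change of the members was 0.23, beside -0.01 over all genes, and 7 of 10 were above 0. Mdm2 and Zmat3 had an unadjusted p below 0.05. Zmat3 was the 1 member whose KO MTX libraries all lay above the KO vehicle libraries, where 20.7% of all genes had groups apart.

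Averaged over the genotypes, none of the 10 genes passed the edgeR call for MTX, which 14.5% of all genes passed, and DESeq2 also called 0. The median log2 fold change was 0.23, and 9 of 10 were above 0 (8 of 10 when scaled by library size alone), as were 51.4% of all genes. At an unadjusted p below 0.05 there were 5 members, namely Cdkn1a, Ccng1, Mdm2, Trp53inp1 and Zmat3, beside 28.7% of all genes. Zmat3 passed the limit on adjusted p, at 0.0994, with a change below the fold limit.

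A difference in the response to MTX between the genotypes was not called for any member by the interaction term, which 0.989% of all genes passed. The smallest adjusted p of a member was 0.413 with edgeR, 0 members had an unadjusted p below 0.05, and DESeq2 called 0. The interaction values were negative for 7 of 10, from -0.69 to 1.20 on the log2 scale, with wide intervals that are given for the genes below. The comparisons of MTX with vehicle and of KO with flox share the flox vehicle libraries, so that a low or high value there enters both. Flox vehicle replicate 4 had the lowest sums of epididymis (1566 CPM) and testis markers (309 CPM) in its group. Within that group Cdkn1a, Ccng1, Trp53inp1, Eda2r and Zmat3 ran in the reverse order of the testis marker sums, and the other members did not. The part of either tissue in the values of the members was not tested.

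**Figure D2:**
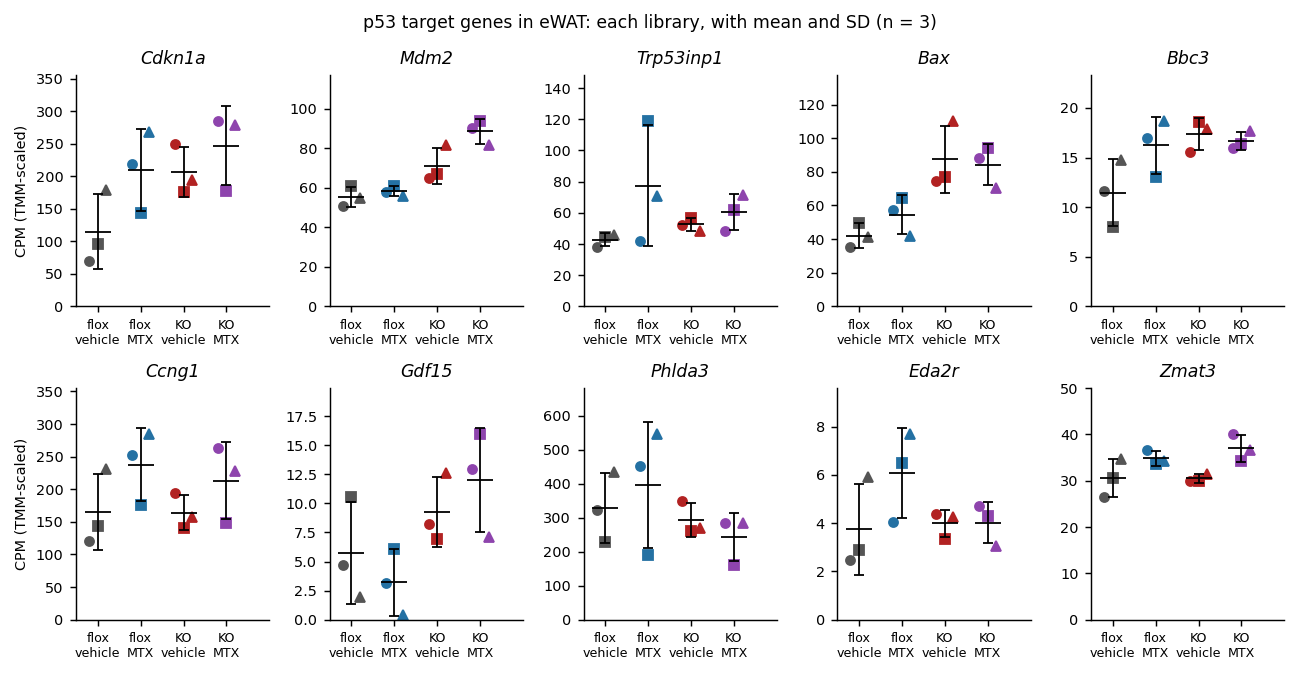
CPM of each p53 target gene in each of the 12 libraries on linear axes from 0, by group; circles, squares and triangles are the 3 libraries of a group, and the bars give the mean and SD (n = 3). The flox vehicle and flox MTX libraries overlap for every gene, and Bax and Mdm2 lie higher in the KO than in the flox libraries under either treatment.

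The cell cycle inhibitors come first. Cdkn1a (ENSMUSG00000023067, chromosome 17, 29090976 to 29100727 of GRCm38, plus strand) encodes p21, which blocks cyclin-dependent kinases and is the best known p53 target. Its level in flox mice was 69.3, 95.7 and 180 CPM in vehicle replicates 1, 3 and 4, and 218, 143 and 268 CPM in MTX replicates 1, 2 and 4. In KO mice it was 250, 177 and 194 CPM under vehicle and 285, 177 and 279 CPM under MTX. The flox vehicle mean, 115 ± 57.6 CPM (SD, n = 3), was the lowest of the 4 groups, and its highest library, replicate 4, lay above flox MTX replicate 2. MTX against vehicle in flox mice gave a log2 fold change of 0.87 ± 0.35 (SE; 95% interval 0.10 to 1.64), which was not called (edgeR adjusted p = 0.105). The corresponding value in KO mice was 0.26 ± 0.35 (adjusted p = 0.894, edgeR). The average over genotypes, 0.56 ± 0.25, did not pass either (adjusted p = 0.159, edgeR), and the exact permutation test over 400 arrangements within genotype gave p = 0.07, two-sided. The difference between the genotypes was -0.61 with a 95% interval of -1.69 to 0.47 (adjusted p = 0.569, edgeR). In flox mice the call depended on single libraries. Among them was flox vehicle replicate 4, which had the lowest testis marker sum of its group (309 CPM), and the part of testis RNA was not tested. Cdkn1a was called without flox vehicle replicate 4 (1.35, adjusted p = 0.0132, edgeR), without flox MTX replicate 2 (1.09, adjusted p = 0.0616) and without KO MTX replicate 3 (0.88, adjusted p = 0.0949). It was also called with DESeq2 (adjusted p = 0.0602) and with no filter on low counts (adjusted p = 0.0819). An antisense gene, AC167363.2, overlaps Cdkn1a in the annotation, and the strand setting of the counting is not given in the sources used here.

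Ccng1 (ENSMUSG00000020326, chromosome 11, 40748552 to 40755311, minus strand) encodes cyclin G1, a p53 target that recruits a phosphatase to Mdm2. In flox mice it was measured at 120, 144 and 231 CPM under vehicle (replicates 1, 3 and 4) and at 253, 175 and 284 CPM under MTX (replicates 1, 2 and 4). The KO libraries held 194, 141 and 158 CPM under vehicle and 263, 149 and 229 CPM under MTX. Groups overlapped in both genotypes, and in each MTX group 1 library lay far below the other 2, flox MTX replicate 2 and KO MTX replicate 3. These are the libraries with the highest sums of lymphocyte markers, and their part in the result was not tested. The log2 fold change under MTX was 0.52 ± 0.29 in flox (adjusted p = 0.225) and 0.38 ± 0.29 in KO mice (adjusted p = 0.802), neither of them called by edgeR. The average of 0.45 ± 0.20 had an adjusted p of 0.172 (edgeR) and p = 0.07 in the exact permutation test. Without flox vehicle replicate 4, Ccng1 was called in flox mice (0.85, adjusted p = 0.0491, edgeR) and on average (0.62, adjusted p = 0.0476).

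Mdm2 (ENSMUSG00000020184, chromosome 10, 117688875 to 117710758, minus strand) is both a target of p53 and the ligase that marks p53 for degradation. In flox mice it stood at 50.8, 60.8 and 54.9 CPM under vehicle and at 57.8, 61.0 and 56.0 CPM under MTX. In KO mice it stood at 65.2, 66.9 and 81.7 CPM under vehicle and at 90.3, 93.9 and 81.7 CPM under MTX. All 6 KO libraries were above all 6 flox libraries, and the flox groups overlapped closely. The change under MTX was 0.07 ± 0.12 on the log2 scale in flox mice (95% interval -0.20 to 0.34, adjusted p = 0.718, edgeR), or -0.13 when scaled by library size alone. In KO mice the value was 0.31 ± 0.12 (0.04 to 0.59, adjusted p = 0.542, edgeR). The average of 0.19 ± 0.09 was not called (adjusted p = 0.173, edgeR; exact permutation p = 0.04, two-sided).

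Bax, Bbc3 and Trp53inp1 act in apoptosis. Bax (ENSMUSG00000003873, chromosome 7, 45461697 to 45466898, minus strand) encodes the protein that opens the outer mitochondrial membrane. Its values were 35.2, 49.7 and 41.1 CPM in flox vehicle libraries and 57.0, 64.7 and 41.8 CPM in flox MTX libraries. They were 74.8, 77.2 and 110 CPM in KO vehicle libraries and 88.1, 94.1 and 70.7 CPM in KO MTX libraries. Every KO library was above every flox library. MTX gave 0.38 ± 0.21 on the log2 scale in flox mice (adjusted p = 0.237, edgeR) and -0.05 ± 0.21 in KO mice (adjusted p = 0.975). The order of the flox MTX libraries was that of their macrophage marker sums, with replicate 4 lowest and replicate 2 highest in both, and the part of macrophages in the values of Bax was not tested. Gm45808, which overlaps Bax in the annotation, held 0 to 2 counts per library.

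Bbc3 (ENSMUSG00000002083, chromosome 7, 16308393 to 16318205, plus strand) encodes Puma, which binds and blocks the survival proteins of the Bcl-2 family. The flox libraries held 11.6, 7.98 and 14.7 CPM under vehicle and 17.0, 13.0 and 18.7 CPM under MTX. The KO libraries held 15.5, 18.6 and 17.9 CPM under vehicle and 15.9, 16.3 and 17.7 CPM under MTX. The flox vehicle group was lowest, and flox MTX replicate 2 lay below its replicate 4. The log2 fold change under MTX was 0.50 ± 0.22 in flox mice (adjusted p = 0.131, edgeR) and -0.06 ± 0.22 in KO mice (adjusted p = 0.970), with a difference between genotypes of -0.56 (95% interval -1.24 to 0.12, adjusted p = 0.413). The value in flox mice was called without flox vehicle replicate 4 (0.73, adjusted p = 0.0307, edgeR) or without flox MTX replicate 2 (0.65, adjusted p = 0.0706).

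Trp53inp1 (ENSMUSG00000028211, chromosome 4, 11156431 to 11174379, plus strand) encodes a stress protein of the nucleus that takes part in p53-dependent apoptosis and in autophagy. It stood at 38.2, 44.4 and 45.8 CPM in flox vehicle libraries and at 42.2, 119 and 70.6 CPM in flox MTX replicates 1, 2 and 4. In KO mice it stood at 52.2, 56.9 and 48.6 CPM under vehicle and at 48.5, 61.9 and 71.2 CPM under MTX. Flox MTX replicate 1 lay inside the flox vehicle range, and replicate 2 lay far above all other libraries. The gene rose by 0.85 ± 0.30 on the log2 scale in flox mice under MTX (1.81-fold, 95% interval 1.15 to 2.83, adjusted p = 0.0660, edgeR), and this was the 1 member called for MTX. The exact permutation test of these 3 against 3 libraries gave p = 0.3, where the smallest p it allows is 0.1. Without flox MTX replicate 2 the change was 0.41 (adjusted p = 0.198, edgeR). The call was also lost without flox vehicle replicate 1 (adjusted p = 0.166) or 3 (adjusted p = 0.161), when libraries were scaled by size alone (0.69, adjusted p = 0.185) and in a fit to the 6 flox libraries (0.84, adjusted p = 0.214). Flox MTX replicate 2 had the highest sum of lymphocyte markers, 305 CPM, and the part of those cells was not tested. In KO mice the log2 fold change was 0.20 ± 0.29 (adjusted p = 0.902, edgeR), and the interaction was -0.65 (95% interval -1.56 to 0.26, adjusted p = 0.483).

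Phlda3, an inhibitor of the survival kinase Akt (ENSMUSG00000041801, chromosome 1, 135766119 to 135769136, plus strand), had the highest level of the list per length and the value closest to 0 for MTX on average. It was measured at 322, 228 and 434 CPM in flox vehicle libraries and at 452, 190 and 546 CPM in flox MTX libraries. The KO libraries held 350, 260 and 270 CPM under vehicle and 284, 162 and 284 CPM under MTX. Within both MTX groups the library with the most lymphocyte markers, flox MTX replicate 2 and KO MTX replicate 3, was the lowest. The adipocyte marker sum was also lowest in its group there, at 49210 and 20826 CPM, and was 84807 CPM in flox MTX replicate 4, where Phlda3 was highest. The part of cell composition in these values was not tested. The average log2 fold change under MTX was 0.00 ± 0.26 (95% interval -0.58 to 0.58, adjusted p = 1.00, edgeR).

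Eda2r, the receptor of ectodysplasin A2 in the tumor necrosis factor receptor family (ENSMUSG00000034457, chromosome X, 97333840 to 97377216, minus strand), was the lowest member. It had 57 to 143 counts per library. The flox libraries held 2.47, 2.87 and 5.91 CPM under vehicle and 4.06, 6.50 and 7.69 CPM under MTX. The KO libraries held 4.38, 3.35 and 4.26 CPM under vehicle and 4.70, 4.29 and 3.06 CPM under MTX. Flox vehicle replicate 4 lay above flox MTX replicate 1, and the KO groups overlapped. The log2 fold change was 0.70 ± 0.37 in flox mice (95% interval -0.11 to 1.5, adjusted p = 0.204, edgeR) and 0.01 ± 0.36 in KO mice (adjusted p = 0.999). Without flox vehicle replicate 4 it was called in flox mice (1.19, adjusted p = 0.0262, edgeR) and on average (0.60, adjusted p = 0.0837).

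Gdf15 (ENSMUSG00000038508, chromosome 8, 70629393 to 70632456, minus strand) encodes a secreted cytokine of the stress response that reduces appetite and is also raised by the transcription factors of the integrated stress response. It was measured at 4.73, 10.5 and 1.94 CPM in flox vehicle libraries and at 3.16, 6.09 and 0.375 CPM in flox MTX replicates 1, 2 and 4, the last of which is 6 counts. In KO mice it was 8.21, 6.90 and 12.7 CPM under vehicle and 13.0, 15.9 and 7.12 CPM under MTX. Every KO MTX library was above every flox MTX library, while the vehicle groups overlapped. Gdf15 was the 1 member with a negative value in flox mice, -0.82 ± 0.76 on the log2 scale (95% interval -2.49 to 0.84, adjusted p = 0.469, edgeR). In KO mice the value was 0.38 ± 0.74 (adjusted p = 0.937). The library with the fewest counts, flox MTX replicate 4, was also the flox MTX library with the lowest macrophage marker sum, and the part of macrophages was not tested.

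Zmat3 (ENSMUSG00000027663, chromosome 3, 32334792 to 32366014, minus strand) encodes an RNA-binding protein through which p53 alters splicing and the stability of messenger RNAs. It was the steadiest member. The flox libraries held 26.5, 30.5 and 34.7 CPM under vehicle and 36.7, 33.6 and 34.3 CPM under MTX. The KO libraries held 30.0, 29.9 and 31.5 CPM under vehicle and 40.1, 34.2 and 36.7 CPM under MTX. The MTX means were 34.9 ± 1.61 CPM in flox and 37.0 ± 2.93 CPM in KO mice, against 30.6 ± 4.08 and 30.5 ± 0.898 CPM under vehicle (SD, n = 3 each). The groups were apart in KO mice, and in flox mice vehicle replicate 4 lay above MTX replicates 2 and 4. The average log2 fold change was 0.23 ± 0.09 (1.18-fold, 95% interval 1.03 to 1.34), with an adjusted p of 0.0994 (edgeR) and p = 0.015 in the exact permutation test over 400 arrangements. Over the alternatives the adjusted p of this value ranged from 0.0382 to 0.432. The change was 0.19 ± 0.12 in flox mice (adjusted p = 0.292, edgeR), or -0.01 when scaled by library size alone, and 0.28 ± 0.12 in KO mice (adjusted p = 0.596).

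**Figure D3:**
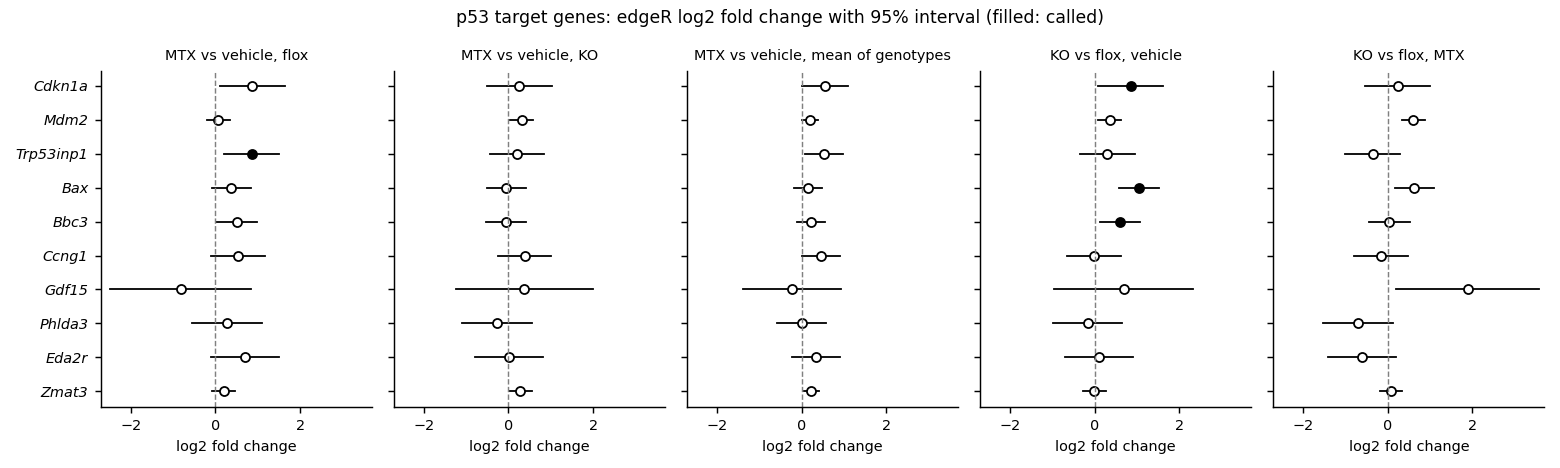
Log2 fold change of each p53 target gene with its 95% interval from edgeR in 5 comparisons, on a shared axis; filled points were called. Trp53inp1 was called for MTX in flox mice (0.85), and Cdkn1a (0.85), Bax (1.06) and Bbc3 (0.60) were called for KO against flox under vehicle.

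Between the genotypes under vehicle, 3 of the 10 genes were higher in KO mice and 0 were lower, where 31.7% of all genes tested were called and 13.9% were called higher. Bax rose by 1.06 ± 0.21 on the log2 scale (2.08-fold, 95% interval 1.5 to 2.88, adjusted p = 0.00519, edgeR). Cdkn1a rose by 0.85 ± 0.35 (1.80-fold, 1.06 to 3.07, adjusted p = 0.0906) and Bbc3 by 0.60 ± 0.22 (1.52-fold, 1.09 to 2.11, adjusted p = 0.0612). Mdm2 differed by 0.36 ± 0.12 (1.28-fold, adjusted p = 0.0488), below the fold limit. The groups lay apart for 4 members, Mdm2, Trp53inp1, Bax and Bbc3, as they did for 48.1% of all genes. The median log2 fold change of the members was 0.33, beside -0.06 over all genes.

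Bax kept its call without each of the 12 libraries in turn, with log2 fold changes of 0.86 to 1.19. The call of Cdkn1a was lost without flox vehicle replicate 1 (0.59, adjusted p = 0.254, edgeR) or 3 (adjusted p = 0.222), without KO vehicle replicate 1 (adjusted p = 0.205), 2 (0.110) or 3 (0.151) without KO MTX replicate 2 (0.105) or 4 (0.106) and in a fit to the 6 vehicle libraries (0.107). The Bbc3 call was lost without flox vehicle replicate 1 (adjusted p = 0.119, edgeR) or 3 (0.40, adjusted p = 0.163), without KO vehicle replicate 2 or 3 (adjusted p = 0.143 for each), in the fit to the 6 vehicle libraries (0.106), and with RLE scaling (0.58), DESeq2 (0.58) and 10 counts per library required (0.57), where the change was under the fold limit. The macrophage marker sums of the KO vehicle libraries were all above those of the flox vehicle libraries, as were the values of Bax, and the part of macrophages in these differences was not tested.

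Under MTX none of the 10 genes was called between KO and flox mice by edgeR, beside 0% of all genes tested, whose smallest adjusted p was 0.104. At an unadjusted p below 0.05 there were 3 members, Mdm2, Bax and Gdf15, beside 4576 of all genes, and DESeq2 called these 3 members among 2769 genes. Mdm2 differed by 0.60 ± 0.12 on the log2 scale (1.52-fold, 95% interval 1.26 to 1.84, adjusted p = 0.104, edgeR), Bax by 0.63 ± 0.21 (adjusted p = 0.125) and Gdf15 by 1.89 ± 0.77 (adjusted p = 0.170). These were also the 3 members whose groups lay apart, beside 26.8% of all genes. Without flox MTX replicate 2, edgeR called 4064 genes in all, and among them 4 members: Mdm2 (0.64, adjusted p = 0.0288), Bax (0.77, adjusted p = 0.0507), Gdf15 (2.72, adjusted p = 0.0579) and, in the lower direction, Phlda3 (-1.03, adjusted p = 0.0484).

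**Figure D4:**
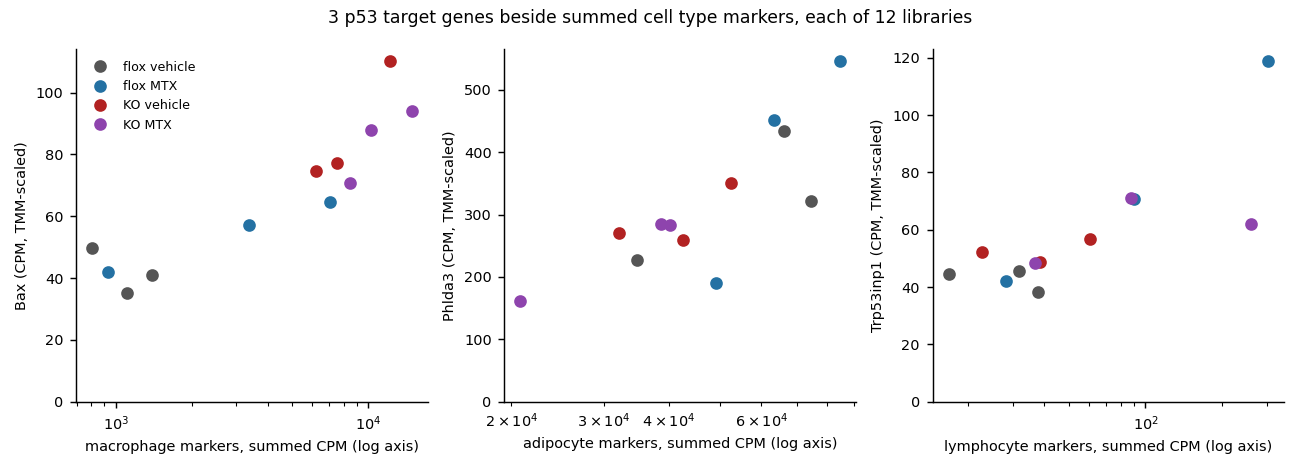
CPM of Bax, Phlda3 and Trp53inp1 (linear axes from 0) against the summed CPM of macrophage, adipocyte and lymphocyte markers (log axes), each point 1 of 12 libraries; the pairs were chosen after the values were seen. The 6 KO libraries have the highest values of Bax, 70.7 CPM or more, and the highest Trp53inp1 value, 119 CPM, belongs to the library with 305 CPM of lymphocyte markers.

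Trp53 itself was not called under MTX in either genotype. The gene for p53 was measured at 30.3, 35.1 and 27.9 CPM in flox vehicle libraries and 27.8, 33.7 and 28.6 CPM in flox MTX libraries, which gives -0.05 ± 0.15 on the log2 scale (edgeR adjusted p = 0.844). In KO mice it was 40.5, 44.8 and 52.8 CPM under vehicle and 42.5, 51.6 and 38.9 CPM under MTX, which gives -0.06 ± 0.15 (adjusted p = 0.962). Between genotypes under vehicle Trp53 differed by 0.57 ± 0.15 (adjusted p = 0.0184, edgeR), just under the fold limit. It stayed uncalled in 7 of 12 fits with a library left out (0.47 to 0.68) and in 6 of 7 other settings. In the rest it was called higher in KO mice. Under MTX the difference was 0.56 ± 0.15 (adjusted p = 0.107, edgeR). Every KO library lay above every flox library. Much of the control of p53 acts on the protein, which was not measured in these files.

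Of the 17 genes of p53 and its regulators, MTX in flox mice raised 1 and lowered 2, beside 24.2% of all genes called in either direction. Cdkn2a, whose product p19Arf holds Mdm2 away from p53 and whose other product p16 blocks cyclin-dependent kinases, was at 0.738, 1.10 and 1.71 CPM in flox vehicle libraries and at 2.88, 3.50 and 2.75 CPM in flox MTX libraries. The groups lay apart, and Cdkn2a rose by 1.36 ± 0.36 on the log2 scale (adjusted p = 0.0248, edgeR). In KO mice it stood at 1.71, 2.24 and 2.67 CPM under vehicle and at 2.96, 4.12 and 2.36 CPM under MTX (0.51 ± 0.35, adjusted p = 0.770), and the average over genotypes was called (0.94 ± 0.25, adjusted p = 0.0396). Cdkn2a was also called higher in KO than in flox mice under vehicle (0.90 ± 0.36, adjusted p = 0.0803). The call for the genotype was lost when flox vehicle replicate 1 or 3, replicate 2 or 3 of the KO vehicle group, or KO MTX replicate 2 was left out, with adjusted p of 0.227, 0.171, 0.147, 0.226 and 0.102, and the average was not called without KO vehicle replicate 1 (adjusted p = 0.107). The genotype call was also lost when scaled by library size alone (adjusted p = 0.109), with no filter (0.128) and in the fit to 6 libraries (0.130). Its counts, 17 to 95 per library, do not separate the transcripts of p19Arf and p16.

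The genes that fell in that list were the p53 relatives Trp63, an epithelial factor (-2.02 ± 0.55, adjusted p = 0.0279, edgeR), and Trp73 (-2.39 ± 0.74, adjusted p = 0.0461), with Trp73 at 2 to 47 counts per library. The values of Trp63 under vehicle in flox replicates 1, 3 and 4 were 7.51, 18.4 and 5.22 CPM, in the same order as the epididymis marker sums of these libraries (4927, 13580 and 1566 CPM). It was at 3.63 CPM or below in the other 9 libraries. The testis marker sums were also highest in the flox vehicle libraries, and the part of epididymis or testis RNA in the fall of Trp63 was not tested, and its call was lost without flox vehicle replicate 3 (-1.32, adjusted p = 0.138). The call of Trp73 was lost without flox vehicle replicate 1 (adjusted p = 0.128) or flox MTX replicate 1 (adjusted p = 0.127). Atm, the kinase that senses double-strand breaks, was not called in flox mice (0.38 ± 0.26, adjusted p = 0.337, edgeR), but it was without flox vehicle replicate 4 (0.79, adjusted p = 0.0184). Mdm4, the partner of Mdm2, was not called (-0.26 ± 0.18, adjusted p = 0.338).

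Of 33 other p53 target genes, 32 passed the filter on low counts and Mir34a did not. MTX in flox mice raised 3 of them and lowered 4, with a median log2 fold change of 0.14. Over all genes tested, 24.2% were called in either direction and 8.09% were called higher. Sesn1, a sestrin that restrains growth signaling after stress, was at 38.7, 35.6 and 46.3 CPM in flox vehicle libraries and 61.9, 118 and 68.4 CPM in flox MTX libraries. Its groups lay apart, and it rose by 1.04 ± 0.23 on the log2 scale (adjusted p = 0.0120, edgeR). In KO mice Sesn1 stood at 70.8, 76.9 and 83.8 CPM under vehicle and at 104, 131 and 106 CPM under MTX, groups that were again apart, though the change of 0.56 ± 0.22 was not called (adjusted p = 0.554). The average over genotypes was called (0.80 ± 0.16, adjusted p = 0.0149), and Sesn1 was called higher in KO mice under vehicle (0.94 ± 0.22, adjusted p = 0.0102), although it was not among the 3 genes named by rule there.

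The other p53 targets that rose in flox mice under MTX were Psrc1, a spindle protein (1.28 ± 0.36, adjusted p = 0.0317, edgeR), and Apaf1, the core of the apoptosome (0.82 ± 0.26, adjusted p = 0.0450). Apaf1 lost its call without flox vehicle replicate 1 (adjusted p = 0.135) or 3 (adjusted p = 0.158) or flox MTX replicate 2 (0.60, adjusted p = 0.116) and when scaled by library size alone (adjusted p = 0.149), and Psrc1 without flox vehicle replicate 3 (adjusted p = 0.101). Both were also called higher in KO mice under vehicle, Psrc1 by 2.07 ± 0.36 (adjusted p = 0.00359) and Apaf1 by 1.32 ± 0.26 (adjusted p = 0.00473). Averaged over genotypes Psrc1 was called for MTX (0.69 ± 0.25, adjusted p = 0.0932), which it was not without 8 of the 12 libraries in turn.

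Those that fell most clearly in flox mice were Perp, a desmosome protein (-2.35 ± 0.38, adjusted p = 0.00489, edgeR), Slc19a2, a thiamine transporter (-1.57 ± 0.26, adjusted p = 0.00514), and Pidd1, a scaffold that activates caspase 2 (-1.07 ± 0.30, adjusted p = 0.0322). Perp was at 12.5, 21.0 and 9.28 CPM in the flox vehicle group (replicates 1, 3 and 4) and at 3.40 CPM or less in all other libraries. Slc19a2 was at 16.4, 29.8 and 14.8 CPM in the same libraries and at 11.8 CPM or less elsewhere. The order of the flox vehicle libraries was that of their epididymis marker sums for both. The testis marker sums set the flox vehicle libraries apart as well, with replicate 1 highest, and the part of either tissue was not tested. Pidd1 followed the same order, at 11.1, 19.9 and 7.29 CPM, and its call was lost without flox vehicle replicate 3 (-0.60, adjusted p = 0.130).

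**Figure D5:**
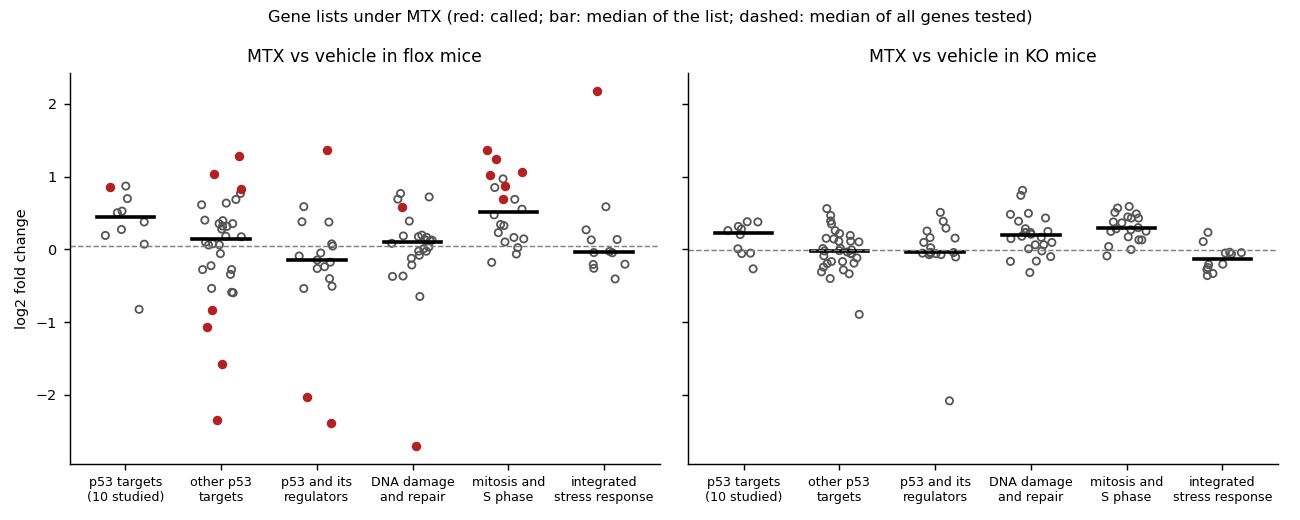
Log2 fold changes under MTX in flox (left) and KO mice (right) for the 10 p53 target genes and 5 other gene lists; red points were called, the bar is the median of a list, and the dashed line is the median of all genes tested. The 10 targets have medians of 0.44 and 0.23, and no gene of these lists was called in KO mice.

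Genes that sense and repair DNA damage gave 1 call in each direction among 24 in flox mice under MTX (median log2 fold change 0.10). The share of all genes called in either direction was 24.2%. Pcna, the sliding clamp of DNA polymerases and also a p53 target, rose by 0.58 ± 0.23 (adjusted p = 0.0971, edgeR) from 39.8, 44.8 and 53.4 CPM to 67.0, 86.9 and 52.96 CPM. Flox MTX replicate 4 lay inside the vehicle range, and the call was lost without flox MTX replicate 2 (0.40, adjusted p = 0.237) and when libraries were scaled by size alone (0.41, adjusted p = 0.316). It was also lost with 10 counts per library required (adjusted p = 0.145) and in a fit to the 6 flox libraries (adjusted p = 0.197), and with RLE factors and DESeq2 the change of 0.58 was under the fold limit. Without flox vehicle replicate 1 (adjusted p = 0.242) or 3 (0.236), flox MTX replicate 1 (0.148), KO vehicle replicate 1 (0.109) or 2 (0.1001), or KO MTX replicate 2 (0.116) it was lost as well. Fanca, of the Fanconi anemia repair complex, fell by 2.70 ± 0.61 (adjusted p = 0.0135), from 32.1, 64.4 and 11.1 CPM under vehicle (replicates 1, 3 and 4) to 7.94, 6.59 and 1.94 CPM. The flox vehicle libraries again stood in the order of the epididymis markers and were those with the most testis markers, whose part was not tested. Fanca was at 3.38 to 5.89 CPM in the KO libraries.

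Mitotic and S phase genes rose in flox mice under MTX in 6 of 20 cases and fell in 0, with a median log2 fold change of 0.51, beside 8.09% of all genes called higher. Of the macrophage markers 12 of 14, and of the lymphocyte markers 7 of 10, were called higher in the same comparison. So were 7 of 10 fibroblast markers and 7 of 9 mesothelium markers (1 mesothelium marker was called lower). The direction of the macrophage markers was the opposite of the authors' staining for the protein Mac2. That staining was reported as reduced in eWAT of flox mice given MTX. Tyms, the thymidylate synthase that MTX treatment leaves short of folate, rose by 0.88 ± 0.21 (adjusted p = 0.0187, edgeR) from 4.95, 5.03 and 7.39 CPM to 12.1, 11.0 and 8.75 CPM, with the groups apart. Birc5, encoding the mitotic protein survivin, rose by 1.37 ± 0.39 (adjusted p = 0.0347), and Ccna2, encoding cyclin A2, by 1.02 ± 0.30 (adjusted p = 0.0358). Ccna2 was not called without flox vehicle replicate 3 (adjusted p = 0.123). The number of genes called in this list ranged from 2 to 9 when libraries were left out in turn. The summed level of the list was 80.7 to 171 CPM in flox vehicle, 136 to 249 CPM in flox MTX, 303 to 457 CPM in KO vehicle and 387 to 481 CPM in KO MTX libraries. In the flox MTX group this sum had the same order as the macrophage and fibroblast markers, lowest in replicate 4 and highest in replicate 2. The part of any of these cell types was not tested.

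In KO mice under MTX, edgeR and DESeq2 called 0 genes in each of these lists: 32 other targets (3 at an unadjusted p below 0.05), 17 regulators (1), 24 damage and repair genes (2) and 20 mitotic and S phase genes (0). Over all genes tested, 7.97% had an unadjusted p below 0.05, edgeR called 0% and DESeq2 called 281 genes. The median log2 fold changes of the 4 lists were -0.02, -0.04, 0.19 and 0.29, beside -0.01 over all genes. The integrated stress response was set beside them because it also raises Gdf15. Of its 12 genes, MTX in flox mice raised 1 and lowered 0, beside 24.2% of all genes called in either direction. The gene was Atf3, a transcription factor of the early stress response, which rose by 2.17 ± 0.73 (adjusted p = 0.0591, edgeR). It was at 5.69 CPM in flox MTX replicate 4, below all 3 flox vehicle libraries, and at 97.0 CPM in replicate 2. Without flox MTX replicate 2 Atf3 was not called (1.34, adjusted p = 0.180), nor was it without flox vehicle replicate 1 (adjusted p = 0.114) or 3 (0.200). In KO mice edgeR and DESeq2 called 0 genes of the integrated stress response, and for 0 of them was the unadjusted p below 0.05.

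Under vehicle 31.7% of all genes were called between the genotypes, in either direction. Beside that, 4 of 17 p53 regulators, 7 of 24 damage and repair genes and 14 of 32 other p53 targets were called. So were 17 of 20 mitotic and S phase genes. The share of the damage and repair genes was close to that of all genes. Of the 32 other p53 targets, 7 were called higher and 7 lower in KO mice, led by Plk2, a kinase of the stress response (2.53 ± 0.44, adjusted p = 0.00349, edgeR), and by Perp (-2.40 ± 0.38, adjusted p = 0.00301), Slc19a2 (-1.49 ± 0.26, adjusted p = 0.00363) and Rrm2b, the p53-induced subunit of ribonucleotide reductase (-0.66 ± 0.12, adjusted p = 0.00414). Rrm2b was at 25.5 to 30.0 CPM in flox vehicle and 17.2 to 17.7 CPM in KO vehicle libraries. Of the p53 regulators 2 were higher, Cdkn2a and the checkpoint kinase Chek2 (0.97 ± 0.23, adjusted p = 0.0102), and 2 were lower, Trp63 (-3.40 ± 0.59, adjusted p = 0.00351) and Prkdc, a kinase of end joining (-1.03 ± 0.18, adjusted p = 0.00388). Of the damage and repair genes 5 were higher, among them Pcna (1.35 ± 0.23), Clspn (1.62 ± 0.50) and Lig1 (0.85 ± 0.27), which copy or guard replicating DNA, and 2 were lower, Fanca (-2.97 ± 0.61) and Xrcc5 (-0.97 ± 0.27). Of these, Clspn lost its call without KO vehicle replicate 3 (adjusted p = 0.105, edgeR) and Lig1 without KO vehicle replicate 3 (0.143) or flox vehicle replicate 1 (0.108). Of the mitotic and S phase genes 17 of 20 were higher and 0 lower, with a median log2 fold change of 1.43, led by Ccna2 (1.77 ± 0.30), Tyms (1.24 ± 0.21) and Aurkb (1.90 ± 0.34). All 14 macrophage and 10 fibroblast markers and 8 of 10 endothelial markers were called higher in KO mice too. The testis markers (13 of 14) and epididymis markers (5 of the 9 tested) were called lower, as were Perp, Slc19a2, Trp63, Fanca, Rrm2b, Prkdc and Xrcc5. In flox vehicle libraries each of these named genes stood in the order of the epididymis marker sums. The part of these cells and tissues was not tested. Under MTX edgeR called 0 genes between genotypes in these 4 lists, beside 0% of all genes. At an unadjusted p below 0.05 there were 7 of 32 other targets, 6 of 17 regulators and 9 of 24 damage and repair genes. Of the mitotic and S phase genes 19 of 20 passed that limit, beside 24.5% of all genes. In the same order DESeq2 called 6, 3, 5 and 18 genes of these lists, beside 2769 of the 18702 genes.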

How the data were processed

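The authors trimmed the reads with Trimmomatic 0.36, aligned them to mm10 (GRCm38) with STAR 2.5.2b and assigned them to Ensembl genes by featureCounts in Subread 1.5.2, and the deposited values are whole read counts without normalization. How strand and multi-mapping reads were handled is not given in the sources used here. The methods describe ribosomal RNA depletion and the labels polyA RNA. Columns of the table were matched to samples by their titles, and gene symbols and coordinates were taken from GENCODE M21 (GRCm38), which named 99.3% of 49315 genes.

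Tests on the counts used edgeR 4.0.16 (limma 3.58.1) in R 4.3.3: TMM factors, filterByExpr by group (18702 genes), a group-means design for the 12 libraries, and glmQLFit with glmQLFTest (common dispersion 0.100, 8 residual degrees of freedom), with Benjamini-Hochberg adjustment over all genes tested. The methods' fold limit was read as 1.5-fold. The SE is the size of the log2 fold change divided by the square root of F, and intervals are 95%. Exact permutation tests, two-sided, used mean log2-CPM (prior count 2). Summed marker levels are shares of all counts. The script was tested on simulated data. Alternatives covered the scaling (RLE factors, or library size only), the filter (none, or 10 counts per library), the tool (DESeq2 1.42.0), a replicate block, fits to the 6 libraries of a comparison, other fold limits, and leaving out each library.

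The members and the lists were chosen with earlier results of these data known. By rule, the text names the 10 members, Trp53, Mdm4, Atm and Cdkn2a, and from each other list the 3 genes called higher and the 3 called lower with the smallest p in a comparison. No 2 libraries of a group were duplicates (lowest chi-square per degree of freedom 12.9). Means are given with the SD over 3 libraries.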

Additional observations from a re-analysis of the deposited data

Results flagged for a closer look

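Slc19a2, a thiamine transporter listed among the other p53 targets, was called by edgeR for the interaction term, a difference between the genotypes in the response to MTX. It was the 1 gene so called in the p53, repair, mitotic and stress lists, beside 0.989% of all genes. DESeq2 called 1 gene each of the other p53 targets, the damage and repair genes and the mitotic and S phase genes, beside 1248 of all genes. The interaction of Slc19a2 was 2.03 ± 0.36 on the log2 scale (adjusted p = 0.0669, edgeR): Slc19a2 fell by 1.57 ± 0.26 in flox mice and stood at 0.47 ± 0.26 in KO mice (adjusted p = 0.699). It was at 7.75, 6.68 and 6.13 CPM in flox MTX libraries, at 7.10, 7.20 and 7.50 CPM in KO vehicle libraries and at 8.61, 11.8 and 9.66 CPM in KO MTX libraries, against 14.8 to 29.8 CPM in flox vehicle libraries. The flox vehicle libraries also held 1566 to 13580 CPM of epididymis markers and 309 to 725 CPM of testis germ cell markers (41.0 to 89.8 CPM in the other 9 libraries, with 10 of 14 called in the interaction), and the part of both was not tested. The call was lost without KO vehicle replicate 1, 2 or 3, flox MTX replicate 2 or KO MTX replicate 4, with adjusted p of 0.185, 0.189, 0.187, 0.124 and 0.245 (edgeR), and with 10 counts per library required (0.206). Groups of 3 libraries were too small for a statistical test of single outlying libraries, and each library was left out in turn instead.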

How the results depend on the processing

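Of the fold changes of the 10 members over all comparisons and alternatives, 1007 kept their direction and their side of the threshold, 22 lost a call, 23 gained one and 62 changed sign. Gdf15 failed the filter of at least 10 counts per library. When only library size was used for scaling, the median log2 fold change of all genes for MTX in flox mice moved from 0.051 to -0.15, and the calls from 1513 higher of 4528 to 766 higher of 4373. The same median moved from 0.012 to -0.10 for MTX on average, from -0.045 to 0.12 for KO against flox under MTX and from -0.051 to 0.13 for the interaction. The causes of the changes below were not tested. At this depth only Gdf15, in flox MTX replicate 4, was close to the limit of detection among the members.

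The replicate numbers that the groups share were not found to pair the libraries: the residuals of the 12 same-numbered pairs correlated at a median of 0.035 (-0.27 to 0.25, 3 pairs over 0.1), against 0.011 for 42 other pairs. With the replicate block, MTX in flox mice gave 2771 genes and 0 members, MTX on average 1157 genes and the interaction 0 genes. The sign under the block was the opposite for Eda2r under MTX in KO mice (-0.20), for Phlda3 (-0.089) and Gdf15 (0.039) under MTX on average, for Ccng1 (0.17), Zmat3 (0.016) and Phlda3 (0.13) between genotypes under vehicle, and for Trp53 under MTX in flox mice (0.017). The block also ended the calls for MTX in flox mice of Trp53inp1, Apaf1, Pidd1, Trp63, Pcna and Atf3, with adjusted p of 0.112 to 0.224, and a fit to the 6 flox libraries those of Trp53inp1, Psrc1, Apaf1, Pidd1, Cdkn2a, Trp63, Pcna, Tyms, Birc5, Ccna2 and Atf3, with adjusted p of 0.1003 to 0.214.

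Counts of calls moved by more than 1.5 times as follows. KO against flox under vehicle had 5924 genes and 3 members, which became 3026 genes and 0 members at a log2 limit of 1.5, and 1 member with its own 6 libraries. MTX in flox mice had 4528 genes and 1 member, which became 2791 genes and 0 members at the log2 limit, 2198 genes with 10 counts per library, and 2167 genes and 0 members with its own 6 libraries. Its members numbered 0 with library size only and 2 both without a filter and with DESeq2. MTX on average had 2719 genes, 1334 at the log2 limit and 1165 with 10 counts per library, and 1 member when no fold was required. KO against flox under MTX went from 0 genes and 0 members to 875 genes and 1 member without a filter, 1491 genes and 1 member with 10 counts per library, 2769 genes and 3 members with DESeq2, and 4 genes with its own 6 libraries. MTX in KO mice went from 0 genes to 20 without a filter, 281 with DESeq2 and 3 with its own 6 libraries, and the interaction from 185 genes to 472, 1 and 1248 without a filter, with 10 counts per library and with DESeq2.

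Scaling by library size only turned the sign of Ccng1 between genotypes under MTX (0.033) and in the interaction (0.049), of Mdm2 (-0.13) and Zmat3 (-0.012) under MTX in flox mice, of Eda2r under MTX in KO mice (-0.012) and of Phlda3 under MTX on average (-0.13). The sign also turned for Eda2r with 10 counts per library (-0.018) and its own 6 libraries (-0.017), for Phlda3 with 10 counts per library (-0.034), and without a filter for Ccng1 (0.020) and Zmat3 (0.028) between genotypes under vehicle.

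Leaving out 1 library at a time gave ranges for the results that moved or turned. In KO against flox under vehicle there were 1 to 3 members, and log2 fold changes ranged for Eda2r from -0.13 to 0.59, for Ccng1 from -0.19 to 0.32, for Phlda3 from -0.37 to 0.10 and for Zmat3 from -0.092 to 0.11. In KO against flox under MTX there were 0 to 4064 genes (the most without flox MTX replicate 2) and 0 to 4 members (the most without flox MTX replicate 2), and log2 fold changes ranged for Trp53inp1 from -0.63 to 0.10, for Bbc3 from -0.097 to 0.16 and for Ccng1 from -0.33 to 0.051. In MTX in flox mice there were 2219 to 5995 genes (the most without flox vehicle replicate 4) and 0 to 5 members (the most without flox vehicle replicate 4), and log2 fold changes ranged for Trp53 from -0.13 to 0.046 and for Phlda3 from -0.024 to 0.62. In MTX in KO mice there were 0 to 215 genes (the most without KO vehicle replicate 3), and log2 fold changes ranged for Eda2r from -0.12 to 0.17, for Bax from -0.16 to 0.15 and for Trp53 from -0.18 to 0.058. In MTX on average there were 1375 to 3732 genes (the most without flox vehicle replicate 4) and 0 to 3 members (the most without flox vehicle replicate 4), and log2 fold changes ranged for Phlda3 from -0.15 to 0.17 and for Gdf15 from -0.64 to 0.17. In the interaction there were 5 to 1371 genes (the most without flox vehicle replicate 4), and log2 fold changes ranged for Ccng1 from -0.47 to 0.049 and for Zmat3 from -0.019 to 0.18.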

Other observations

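Genes of the integrated stress response separated the genotypes in both directions under vehicle, with 4 of 12 called higher and 3 lower in KO mice, beside 13.9% of all genes called higher and 31.7% called in either direction. Atf3 rose by 3.83 ± 0.78 on the log2 scale (adjusted p = 0.00525, edgeR), from 13.7, 7.51 and 13.0 CPM in flox to 114, 128 and 245 CPM in KO vehicle libraries. Ppp1r15a, which restarts translation after stress, rose by 0.67 ± 0.21 (adjusted p = 0.0323), and Ddit4, an inhibitor of growth signaling, by 0.85 ± 0.29 (adjusted p = 0.0486). The genes that fell make amino acids: Psat1 (-1.35 ± 0.33, adjusted p = 0.0117) and Phgdh (-1.55 ± 0.50, adjusted p = 0.0374) for serine, and Asns for asparagine (-1.03 ± 0.34, adjusted p = 0.0424). Psat1 stood at 309, 392 and 270 CPM in flox and 170, 112 and 97.6 CPM in KO vehicle libraries. Leaving out single libraries ended the calls of Ddit4 (flox vehicle replicate 4 or KO vehicle replicate 3), Asns (flox vehicle replicate 1, KO vehicle replicate 1 or 3) and Phgdh (KO vehicle replicate 2 or 3), with adjusted p of 0.105 to 0.170. The macrophage marker sums separated the genotypes as well (806 to 1392 against 6214 to 12164 CPM). The adipocyte marker sums overlapped (34756 to 74584 against 32174 to 52585 CPM), with 3 of 14 adipocyte markers called lower. The part of either cell type was not tested.

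Averaged over the genotypes, Ccna2 (0.80 ± 0.21, adjusted p = 0.0349, edgeR), Birc5 (0.90 ± 0.27, adjusted p = 0.0598) and Top2a (0.78 ± 0.25, adjusted p = 0.0662) were called higher under MTX. These 3 of 20 mitotic and S phase genes, with 0 called lower, stand beside 14.5% of all genes called in either direction. Of those 2719 genes, 826 were called higher. In the same comparison 9 of 14 macrophage and 9 of 10 lymphocyte markers were called higher. Among the genes of the lists called lower on average were Perp (-1.62 ± 0.26, adjusted p = 0.00838), Trp73 (-2.23 ± 0.53, adjusted p = 0.0263) and Fanca (-1.32 ± 0.42, adjusted p = 0.0671). The calls of Birc5, Top2a and Fanca were lost without 6 to 8 of the 12 libraries in turn, and those of Birc5 and Top2a also when scaled by library size alone.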
